A study of Mus musculus with 6 samples.

Results

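The matrix metalloproteinase genes Mmp2, Mmp3, Mmp7, Mmp9, Mmp12, Mmp13, Mmp14 and Mmp19 were examined together with Timp1, an inhibitor of these enzymes, and Adam8, a membrane-bound metalloproteinase. The 10 genes were chosen by name and are 10 of the 22556 genes with a value in mouse pancreas RNA sequencing. The pancreas came from wild type C57BL/6 mice of 8 weeks in 3 groups of 2 libraries each, and the labels do not state whether each library is a separate mouse. One group received saline, one received cerulein, which causes acute pancreatitis (AP), and one received polyI:C, a synthetic double-stranded RNA that TLR3 binds, and then cerulein. All 6 libraries were run on 1 sequencing lane. No group received polyI:C without cerulein, and the RNA was taken from whole pancreas.

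Matrix metalloproteinases are zinc-dependent enzymes that cut collagens, laminins and other matrix proteins, and they also release growth factors and cytokines from cell surfaces. Most are secreted as inactive precursors that other proteinases, such as plasmin or another matrix metalloproteinase, switch on by removing the propeptide. The tissue inhibitors of metalloproteinases (TIMPs) block the active enzymes by binding to the zinc site. In pancreatitis these enzymes are known for their part in leukocyte entry, in matrix turnover and in the conversion of acinar cells to duct-like cells.

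Values were TPM (transcripts per 1000000), a level scaled for gene length and library total. A gene was called changed when its fold was at least 2 and its adjusted p was at most 0.05, by limma with Benjamini-Hochberg adjustment over the 16814 genes whose mean TPM reached 1. Of the 10 genes, 8 passed that filter, while Mmp12 and Mmp13 lay under it and were not tested. Differences and folds are of TPM + 0.5, and gene positions are those of GENCODE M21 on GRCm38. The estimated depth, in units of 1000000 reads, ran from 3.30 in a saline library to 10.8 in a polyI:C + AP library. Both saline libraries (3.30 and 3.97) lay under the others (at least 6.93). This depth counts only genes with values, and TPM adds up to 1000000 over the same genes. Genes without values, among them the acinar enzyme genes Cpa1, Cpb1, Prss2 and Pnlip, are in neither total, so the full sequencing depth is not known here. Reads of each of the 10 genes were estimated from the spacing of the TPM values, with a length fitted to the gene. The fit required whole reads in every library, within 0.03 of a read, so wholeness was its criterion and not a separate check. The ratio of M21 exon length to fitted length ran from 0.497 (Adam8) to 1.04 (Mmp19), while depth was estimated with the M21 lengths. These estimated reads are given for the low genes. With 2 libraries a group, the smallest two-sided p that an exact permutation of the labels allows is 0.333, and the p-values given here come from a variance shared across genes and measure only the spread between these libraries, which may be technical. In bulk tissue, fewer cells of a type and less RNA per cell cannot be told apart.

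Pancreas with AP held more RNA of most of these genes than saline pancreas. Of the 8 tested genes, Mmp3, Mmp7, Mmp19, Timp1 and Adam8 rose and none fell, where 18.2% of all tested genes rose and 4.03% fell. Timp1 and Adam8 had the largest differences, 4.14 and 3.88 on the log2 scale. Between polyI:C + AP and AP, 7 of the 8 tested genes were not called. Adam8 alone fell, where 0.404% of all tested genes fell and 0.44% rose. Against saline, the same 5 genes rose in polyI:C + AP pancreas, where 16.9% of tested genes rose and 2.97% fell.

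**Figure D1:**
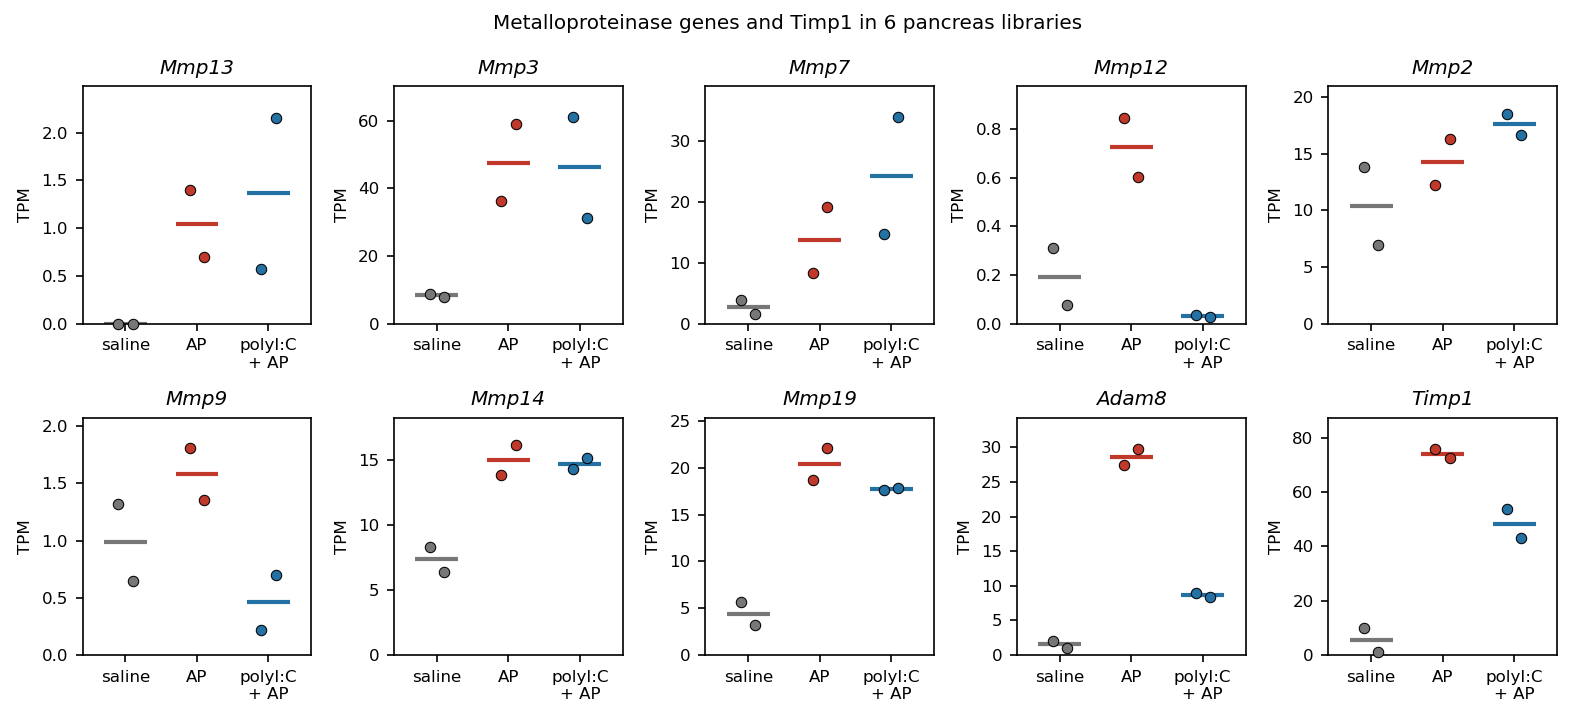
Level in TPM (y axis, linear, from 0) of the 10 genes in each of the 6 libraries, with points for libraries and a line at the group mean. Adam8 was 27.5 and 29.8 TPM in AP against 8.99 and 8.41 after polyI:C, while the Mmp3, Mmp7, Mmp13 and Mmp14 points of those groups overlapped.

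Several of the secreted enzymes are neighbours. Mmp13, Mmp12, Mmp3 and Mmp7, with 3 other Mmp genes that have values, lie within 427.1 kb of chromosome 9 (7272514 to 7699585, GRCm38). The 120 bases before a transcription start are shown for these 4 genes, because each holds the sequence TGAGTCA or its reverse complement TGACTCA, the letters that AP-1 (Fos and Jun dimers) binds. Capitals mark that motif and TATAAA, the sequence was taken from RefSeq (GRCm38.p6), and all 4 lie on the plus strand.
Mmp13, chr9:7272394-7272513: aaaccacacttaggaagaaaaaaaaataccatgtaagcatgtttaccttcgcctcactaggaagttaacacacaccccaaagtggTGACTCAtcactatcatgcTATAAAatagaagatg
Mmp12, second listed start, chr9:7347254-7347373: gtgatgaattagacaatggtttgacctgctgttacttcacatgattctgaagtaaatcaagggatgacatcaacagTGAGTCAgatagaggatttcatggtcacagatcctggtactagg
Mmp3, chr9:7445702-7445821: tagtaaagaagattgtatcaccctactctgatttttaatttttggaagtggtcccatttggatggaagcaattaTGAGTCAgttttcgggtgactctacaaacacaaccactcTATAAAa
Mmp7, first listed start, chr9:7691970-7692089: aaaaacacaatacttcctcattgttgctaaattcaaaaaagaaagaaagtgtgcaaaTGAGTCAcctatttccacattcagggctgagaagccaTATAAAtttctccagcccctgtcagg
Promoter windows were given for 7 of the 10 genes, and none for Mmp2, Mmp9 and Mmp19. Over the 250 bases before a start, 4 of those 7 genes held the AP-1 letters on either strand, against 5.16% of 27025 genes. TATAAA was in 3 of the 7, against 14.3% of genes. Mmp14, Timp1, Adam8, the first listed start of Mmp12 and the second of Mmp7 held neither. These matches describe the letters only, since binding was not measured here.

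Mmp3 (chr9:7445822-7455975) encodes stromelysin-1, which cuts proteoglycans and laminin and activates other matrix metalloproteinases. Its level was 8.75 and 7.95 TPM in saline, 36.1 and 59.0 in AP, and 61.2 and 31.2 in polyI:C + AP. Both cerulein groups lay wholly above saline and overlapped each other. Mmp3 rose 5.28-fold in AP (log2 2.40, SE 0.36, adjusted p 0.0024). It rose by 2.32 in polyI:C + AP against saline (adjusted p 0.0029), a call that voom alone of 15 alternatives did not make (0.058). PolyI:C + AP differed from AP by -0.08 on the log2 scale, with a 95% interval from -0.94 to 0.78, and the sign changed without AP replicate 2 (0.27) or polyI:C + AP replicate 2 (0.40).

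Mmp7 (chr9:7692090-7699585) encodes matrilysin, a small enzyme without the haemopexin domain that is made mainly by epithelial cells. It was 3.85 and 1.58 TPM in saline, from 6 and 2 estimated reads. In AP it was 8.33 and 19.1 TPM and in polyI:C + AP 14.6 and 33.8. The AP libraries differed from each other by more than the cerulein means, 13.7 and 24.2 TPM, did, and so did the polyI:C + AP libraries. The rise in AP was 4.37-fold (log2 2.13, SE 0.60, adjusted p 0.03). It was not called under 9 of 15 alternative settings (adjusted p 0.054 to 0.24), among them median-of-ratios scaling, voom on the estimated reads, no filter, and leaving out any library but saline replicate 1. The rise of polyI:C + AP over saline was 2.92 on the log2 scale (adjusted p 0.0092), lost with voom, without saline replicate 2 and without polyI:C + AP replicate 2 (0.063 to 0.11). It was 3.51 and 2.33 without polyI:C + AP replicates 1 and 2, and the difference from AP was 0.79 (-0.65 to 2.24).

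Mmp13 (chr9:7272514-7283331), collagenase-3, cuts fibrillar collagens. It was listed at 0 in both saline libraries. It reached 1.40 and 0.692 TPM in AP, from 8 and 5 estimated reads, and 0.571 and 2.16 TPM in polyI:C + AP, from 4 and 19. Every cerulein library therefore held reads that the saline libraries lacked. Against a floor of 3 reads over the saline group, the level was at least 2.37-fold higher in AP and at least 3.43-fold higher in polyI:C + AP, counting error aside. The exact 95% lower limits from counting were 1.67 and 2.57, and 19 of the 23 polyI:C + AP reads came from replicate 2.

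Mmp12 (chr9:7344381-7369499), macrophage elastase, is a product of macrophages. It was 0.310 and 0.0763 TPM in saline, 0.847 and 0.603 in AP, and 0.0345 and 0.0275 in polyI:C + AP. The estimated reads were 5 and 1, 20 and 18, and 1 and 1 in the same order. The groups did not overlap, with AP highest and polyI:C + AP lowest, in the least expressed gene of the set. The ratio of AP to polyI:C + AP was 23.2, with an exact 95% counting interval from 6.01 to 199 that covers counting error only. In a fit without the filter on low values, where a pseudocount of 0.5 TPM exceeds most of its levels, the difference was -1.20 on the log2 scale (adjusted p 0.38).

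Mmp9 (chr2:164940780-164955850), gelatinase B, cuts denatured and type IV collagen and is stored by neutrophils. It was 1.32 and 0.651 TPM in saline, 1.81 and 1.36 in AP, and 0.221 and 0.703 in polyI:C + AP. The polyI:C + AP libraries were lower than both AP libraries and overlapped saline. These levels rest on 3 to 20 estimated reads a library, and no comparison was called. Mmp9 passed the filter of 1 TPM only through its AP libraries (group means 0.987, 1.58 and 0.462 TPM in saline, AP and polyI:C + AP). The difference of polyI:C + AP from AP was -1.15 (-2.53 to 0.22, adjusted p 0.45).

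Mmp2 (chr8:92827291-92853420), gelatinase A, is made mainly by fibroblasts and is activated at the cell surface by MMP14. It was 13.9 and 6.95 TPM in saline, 12.2 and 16.4 in AP, and 18.5 and 16.7 in polyI:C + AP. Saline and AP overlapped, and the difference of 0.50 was not called (-0.28 to 1.28, adjusted p 0.27). The 2 polyI:C + AP libraries were the highest of the 6, 0.81 above saline on the log2 scale (adjusted p 0.096), with 1.28 (0.015, called) without saline replicate 1, 0.33 (0.32) without saline replicate 2 and 0.37 (0.44) with median-of-ratios scaling.

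Mmp14 (chr14:54431612-54445364) encodes MT1-MMP, a membrane-anchored collagenase. It was 8.33 and 6.40 TPM in saline, 13.8 and 16.1 in AP, and 14.3 and 15.2 in polyI:C + AP. The saline libraries lay below all others. The difference in AP was 1.98-fold (log2 0.98, SE 0.18, adjusted p 0.005), just under the fold threshold, and it passed with a pseudocount of 0.1 (1.02), without saline replicate 1 (1.16) and without AP replicate 1 (1.09). Between the cerulein groups it was -0.02 (-0.44 to 0.40), the narrowest interval among the 8 tested genes, with the opposite sign without AP replicate 2 (0.087) or polyI:C + AP replicate 1 (0.02).

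Mmp19 (chr10:128790910-128800824) encodes a secreted enzyme that cuts basement membrane proteins. It was 5.62 and 3.21 TPM in saline, 18.7 and 22.1 in AP, and 17.7 and 17.9 in polyI:C + AP. All 4 cerulein libraries were over 3 times the higher saline library. Mmp19 rose 4.37-fold in AP (log2 2.13, SE 0.26, adjusted p 0.0011) and by 1.94 on the log2 scale in polyI:C + AP (adjusted p 0.0017). It shares bases with Tmem198b on the other strand, which stayed between 2.30 and 4.13 TPM. Whether reads were counted by strand is not given in the sources used here.

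Adam8 (chr7:139978932-139992562) encodes a sheddase of leukocytes, named for its metalloproteinase and disintegrin domains. It was 1.98 and 1.08 TPM in saline, 27.5 and 29.8 in AP, and 8.99 and 8.41 in polyI:C + AP, which gave means of 1.53 ± 0.635, 28.6 ± 1.62 and 8.70 ± 0.408 (SD, n = 2). The saline levels rest on 27 and 12 estimated reads. The 3 groups did not overlap, and the libraries of each group lay close together. Adam8 rose 14.7-fold in AP (log2 3.88, SE 0.23, adjusted p 9.8e-05). After polyI:C its level was 0.316 of that in AP (log2 -1.66, SE 0.23, interval -2.22 to -1.11, adjusted p 0.032), while it stayed 2.21 above saline on the log2 scale (adjusted p 7e-04). The fall was lost under 7 of 15 alternatives, among them the fits without either AP library (adjusted p 0.36 and 0.42) or either polyI:C + AP library (0.19 and 0.33), which gave log2 differences between -1.72 and -1.60. In 3 of those 4 limma fits, those without an AP library or polyI:C + AP replicate 2, 0 genes of all tested were called in this comparison, with 1370 to 1495 at an unadjusted p under 0.05.

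Timp1 (chrX:20870166-20874735) encodes a secreted inhibitor that is induced in many inflamed tissues. It was 9.90 and 1.22 TPM in saline, 75.7 and 72.5 in AP, and 53.8 and 42.9 in polyI:C + AP, with means of 5.56 ± 6.14, 74.1 ± 2.32 and 48.4 ± 7.64 (SD, n = 2). The groups did not overlap, but the saline libraries differed widely, with 20 and 2 estimated reads. Timp1 rose 17.7-fold in AP (log2 4.14, SE 0.74, adjusted p 0.0049), and the call was lost without either AP library (0.076 and 0.068). The size rested on the saline libraries, with a log2 difference of 5.44 without saline replicate 1 and 2.84 without saline replicate 2. In polyI:C + AP it rose by 3.52 on the log2 scale against saline (adjusted p 0.0099), a call lost without any 1 of the 4 cerulein libraries and in a fit of these groups alone (0.051 to 0.12), and it was 4.82 and 2.22 without saline replicates 1 and 2. The difference of polyI:C + AP from AP was -0.62 (-2.39 to 1.15, adjusted p 0.78). Timp1 lies inside Syn1, a gene of the other strand that stayed between 0.706 and 1.55 TPM.

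**Figure D2:**
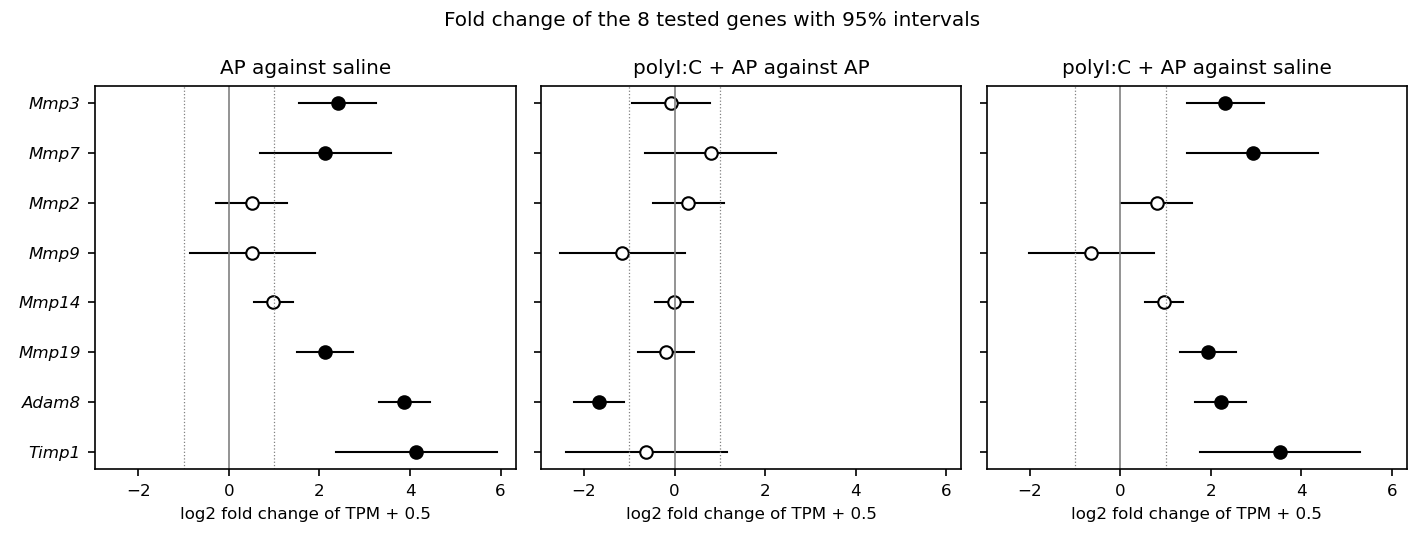
Log2 fold change of TPM + 0.5 (x axis) with its 95% interval for the 8 tested genes in 3 comparisons that share samples. Filled points passed the threshold, dotted lines mark a 2-fold change, and Adam8 at -1.66 is the filled point left of 0 between the cerulein groups.

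Set side by side, 7 of the 8 tested genes in AP and 7 in polyI:C + AP lay wholly above saline, where 52.6% and 54.4% of all tested genes did. Both comparisons use the same saline libraries. Against AP, 4 of the 8 lay wholly lower after polyI:C (Mmp9, Mmp19, Timp1 and Adam8) and Mmp2 wholly higher, where 22.1% and 27.7% of tested genes did. Mmp9 passed the filter of 1 TPM only through its AP libraries, so its place in these counts gives little support. The median difference of the 8 was 2.13 in AP against saline and -0.13 in polyI:C + AP against AP, beside 0.45 and 0.04 over all tested genes. Median-of-ratios scaling moved the median of all genes in AP to 0.05 and the split of calls from 3053 raised and 677 lowered to 1564 and 1226. In polyI:C + AP against saline it moved the median from 0.48 to 0.05 and the split from 2838 and 500 to 1324 and 984. In AP, Mmp3 (1.99), Mmp19 (1.73), Timp1 (3.76) and Adam8 (3.52) were still called there, Mmp14 was 0.57, and the 2 lowest, Mmp2 and Mmp9, were 0.09 and 0.22.

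The balance of enzyme and inhibitor RNA was read from summed levels. The 8 Mmp genes together reached 42.0 and 26.8 TPM in saline, 93.2 and 135 in AP, and 127 and 118 in polyI:C + AP. Mmp3 gave the largest single level in AP, while in saline it lay near Mmp2 and Mmp14. Timp1 to Timp4 together were 85.5 and 45.4 TPM, 129 and 140, and 114 and 96.9. Timp1 was 11.6% and 2.68% of that inhibitor sum in saline, 58.6% and 51.9% in AP, and 47.1% and 44.3% in polyI:C + AP. The inhibitor pool thus went from mostly Timp2 and Timp3 to a large Timp1 share in all 4 cerulein libraries. Mmp TPM per TPM of all 4 inhibitors was 0.492 and 0.590 in saline, 0.721 and 0.969 in AP, and 1.11 and 1.21 in polyI:C + AP. With all 20 Mmp genes that have values, the same ratio was 0.951 and 1.57 in saline, 1.48 and 1.66 in AP, and 2.09 and 2.50 in polyI:C + AP, and saline and AP overlapped. Per TPM of Timp1 alone, the 8 Mmp genes went the other way in AP, with 4.25 and 22 in saline, 1.23 and 1.87 in AP, and 2.37 and 2.74 in polyI:C + AP. The ratios thus depended on which genes were summed. Shares and ratios across genes also depend on the gene lengths behind TPM. The ratio of M21 exon length to fitted length was 0.642 for Timp1 and 0.663 for Mmp2, but 1 for Mmp3 and Mmp7 and 0.929 for Timp2. The shares and ratios were not tested and describe RNA, not enzyme activity.

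**Figure D3:**
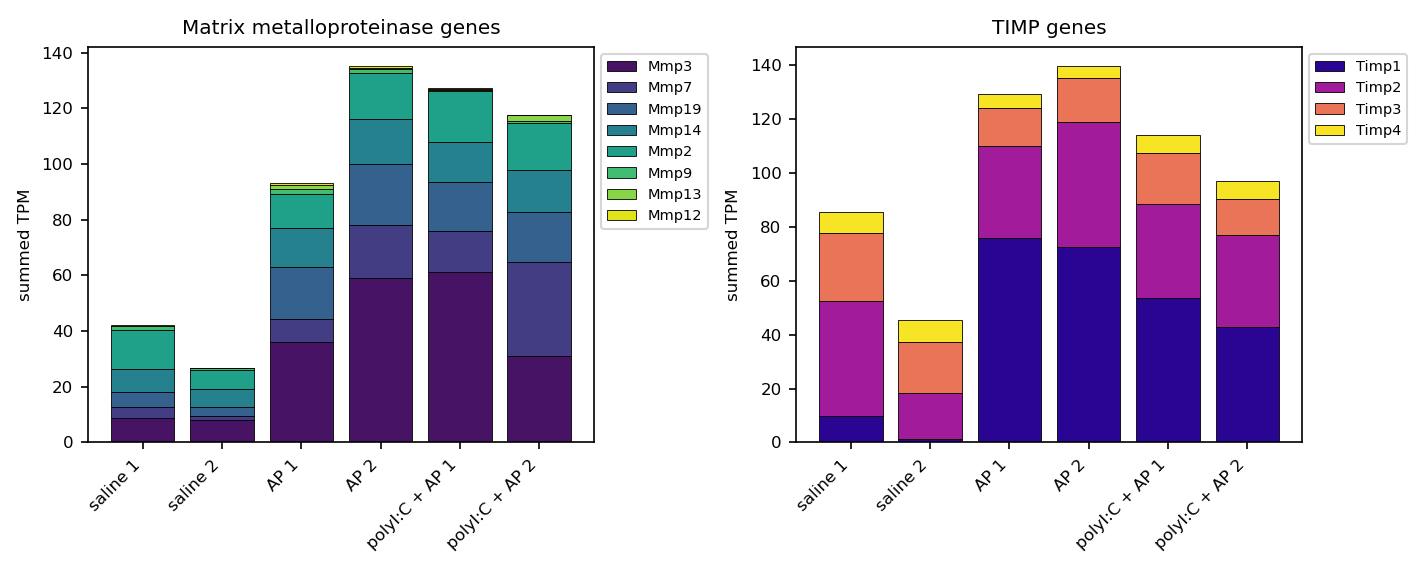
Summed TPM (y axis, from 0) of the 8 Mmp genes and of Timp1 to Timp4 in each library, stacked by gene. The Mmp stack is 26.8 and 42.0 TPM in saline and at least 93.2 elsewhere, and Timp1 takes 44.3% to 58.6% of the inhibitor stack in the cerulein libraries.

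Of the 5 other inhibitors tested, limma called 0 in each comparison, as did voom, with 2 at an unadjusted p under 0.05 in AP against saline and 0 in the other comparisons. Timp2 was 42.6 and 17.1 TPM in saline and 34.2 and 46.4 in AP (log2 0.55, adjusted p 0.31). Timp3, which binds to matrix, was 25.2 and 19.0 TPM in saline and 14 and 16.3 in AP (-0.52, adjusted p 0.096). Timp4 was 7.81 and 8.11 TPM against 5.34 and 4.46 (-0.65, adjusted p 0.032), under the fold threshold, and it was called lower with median-of-ratios scaling. Timp1 was therefore the only TIMP gene whose AP libraries were all above saline.

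Among the other Mmp genes, 2 of 7 tested rose in AP, with a median difference of 0.67. Mmp8, the neutrophil collagenase, was listed at 0 in saline, at 1.54 and 3.20 TPM in AP, and at 0.944 and 0.50 after polyI:C (AP against saline adjusted p 0.022). The AP values rest on 8 and 21 estimated reads. Mmp8 passed the filter of 1 TPM only through its AP libraries (group means 0, 2.37 and 0.722 TPM), so its call gives little support beyond these values. Mmp15, a membrane-type enzyme, was 30.5 and 37.1 TPM in saline, 79.3 and 75.3 in AP, and 97.6 and 98.0 after polyI:C (log2 1.19, adjusted p 0.00049). Mmp15 thus stood above each of the 8 chosen Mmp genes in every library. With median-of-ratios scaling, neither Mmp8 nor Mmp15 was called raised in AP, while Mmp15 was still called raised in polyI:C + AP against saline. Mmp10, stromelysin-2 and a neighbour of Mmp3, was listed at 0 in both saline libraries and in 1 polyI:C + AP library, at 6.25 and 4.08 TPM in AP and at 13.9 in the other polyI:C + AP library (AP against saline adjusted p 0.091).

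Of 14 other Adam and Adamts genes tested, which encode surface and secreted proteinases, 7 rose in AP and none fell, with a median difference of 1.01, and 3 rose with median-of-ratios scaling. Adam12 was 0.563 and 0.441 TPM in saline, 6.09 and 7.09 in AP, and 3.77 and 2.54 after polyI:C (log2 2.82, adjusted p 0.00029). Adamts4, an aggrecanase, was 0.800 and 0.492 TPM, 7.02 and 4.25, and 2.38 and 2.78 (log2 2.40, adjusted p 0.0022). Between AP and polyI:C + AP, limma called 0 of the 14, with 5 at an unadjusted p under 0.05, and voom called 1 lower, and the median difference was -0.21. Adam17, the sheddase of TNF, rose by 1.25 on the log2 scale in AP (adjusted p 0.00051), a gene chosen after its value was seen.

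Of 11 genes of the plasminogen system and of the convertases, which activate precursors of these enzymes, limma called 6 higher in AP and 0 lower, and voom and median-of-ratios scaling each called 1 lower, with a median difference of 1.59 in AP against saline and -0.25 in polyI:C + AP against AP. St14, matriptase, was 22.4 and 21.9 TPM in saline, 188 and 180 in AP, and 172 and 142 after polyI:C (log2 3.02, adjusted p 2.4e-05). Plat, tissue plasminogen activator, was 6.11 and 3.87 TPM, 33.2 and 54.5, and 22.6 and 18.8 (log2 3.0, adjusted p 0.00043). Plaur, the urokinase receptor, rose by 2.28 on the log2 scale (adjusted p 0.0022). Plau, urokinase, was 44.1 and 41.3 TPM in saline, 135 and 124 in AP, and 51.6 and 38.2 after polyI:C. By limma, Plau was the one gene of the 11 called lower after polyI:C, with 6 at an unadjusted p under 0.05 and 3 called lower by voom (Plau log2 -1.53, SE 0.16, adjusted p 0.016), to within 0.06 of saline on the log2 scale.

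Of 20 partners and substrates, 16 rose in AP and none fell, and limma called 0 between AP and polyI:C + AP, with 7 at an unadjusted p under 0.05 and 1 called lower by voom. Their median differences were 2.02 and -0.45. Lcn2, which binds MMP9, rose by 4.21 on the log2 scale (adjusted p 0.0031), Cd44, a surface anchor of MMP9, by 3.62 (4.9e-05), Sdc1, a proteoglycan shed by these enzymes, by 3.49 (1.3e-05), and Itgb6 by 3.12 (6.5e-05). Among 13 transcription factors of the AP-1, Ets and Runx families, 12 rose in AP and 11 in polyI:C + AP against saline, with medians of 1.93 and 1.96. Between AP and polyI:C + AP, limma called 0 of the 13, with 3 at an unadjusted p under 0.05, and voom called 1 lower. By log2 difference from AP, 9 were lower and 4 higher, with a median of -0.32. Atf3 was 2.05 and 6.31 TPM in saline, 118 and 106 in AP, and 68.0 and 50.6 after polyI:C (log2 4.75, adjusted p 0.00034). Junb was 15.2 and 8.42 TPM, 194 and 216, and 179 and 150 (log2 4.12, adjusted p 0.00011). Etv4 and Fos rose by 2.86 and 2.75 (adjusted p 0.0015 and 0.0011).

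**Figure D4:**
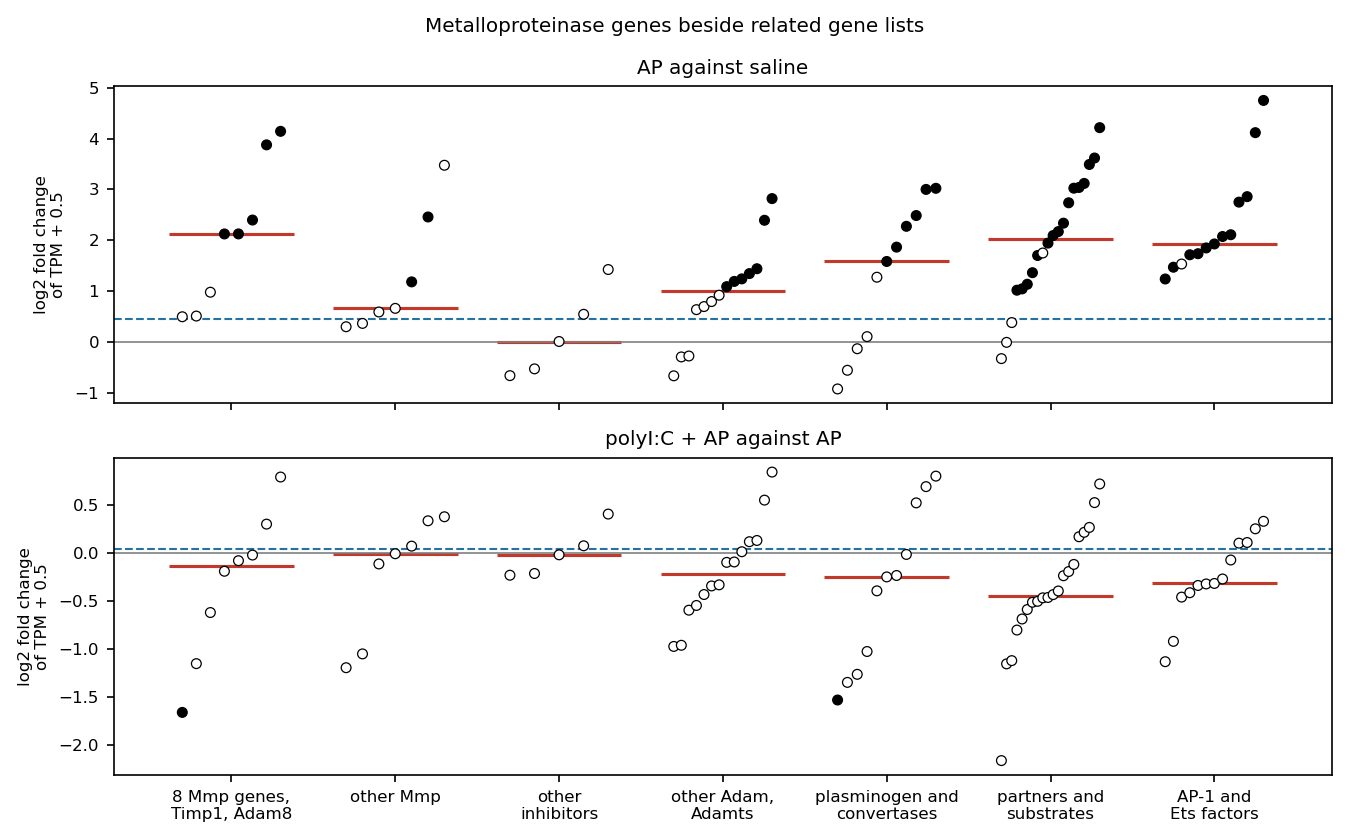
Log2 fold change of TPM + 0.5 (y axis) of each tested gene in 7 lists, for AP against saline and polyI:C + AP against AP, with filled points past the threshold. Red lines are list medians and the blue dashed line is the median of all tested genes, 0.45 and 0.04, and in the lower panel the filled points are Adam8 and Plau.

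Markers of other cells moved between the same groups. All 14 macrophage markers were above 0 in every library, 10 rose in AP, and Csf1r, Lyz2, Mrc1, Itgam, Ccr2 and Cd163 fell after polyI:C. Their summed level was 515 to 791 TPM in saline, 2852 to 3300 in AP and 694 to 841 in polyI:C + AP, the order that Adam8 and Mmp12 also show between the cerulein groups. Of 10 neutrophil markers with values, 6 were tested, and the sum of the 10 was 5.66 to 16.9, 64.8 to 74.0 and 23.4 to 45.2 TPM, with S100a9, Retnlg and Mmp8 raised in AP by limma (Retnlg alone with median-of-ratios scaling). After polyI:C, limma called 0 of the 6 lower, with 2 at an unadjusted p under 0.05, and voom called 1 lower. Retnlg gave most of the lower sum after polyI:C, with group means of 31.7 TPM in AP and 4.51 in polyI:C + AP. By log2 difference from AP, 5 of the 6 were lower and 1 higher, with Camp at -0.06 and S100a8 at 0.14. Mmp8 is among the 10 summed markers, so its level is not independent of that sum. Elane was at 0 in all saline and AP libraries, and Ly6g, Mpo and Ngp were not analysed here. The part of these cells in the values of Adam8, Mmp8, Mmp9 and Mmp12 was not tested.

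**Figure D5:**
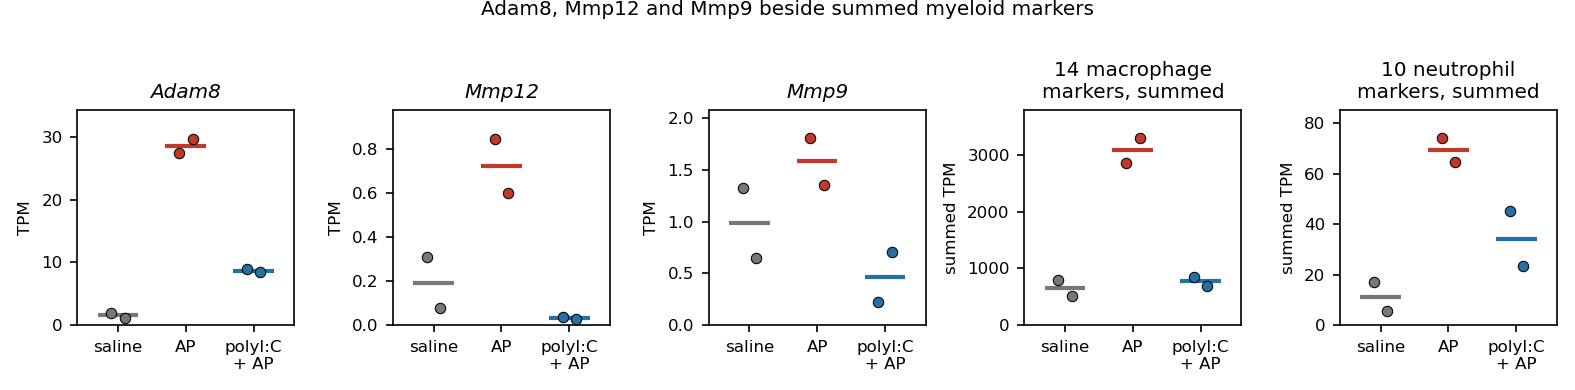
TPM of Adam8, Mmp12 and Mmp9 and the summed TPM of 14 macrophage and 10 neutrophil markers (y axes, from 0) in each library, with a line at the group mean. The macrophage sum is 2852 and 3300 TPM in AP, of which Lyz2 gives 1891 and 2118, and at most 841 in the other groups. Retnlg gives most of the lower neutrophil sum after polyI:C. Adam8 after polyI:C stays above saline, and so do the called markers Cd68, Cd14 and C1qa, while Csf1r and Lyz2 are called lower than saline.

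The 10 duct markers summed to 2453 to 2773 TPM in saline, 32004 to 33865 in AP and 23312 to 30242 after polyI:C, with 7 raised in AP, beside the epithelial gene Mmp7. The 11 fibroblast markers summed to 661 to 935, 933 to 1152 and 780 to 941 TPM, with 5 raised in AP by limma, and with 0 lowered after polyI:C by limma (2 at an unadjusted p under 0.05) and 2 by voom, beside Mmp2, Mmp3, Mmp14 and Timp1. Dcn gave most of that sum in saline and went the other way, with 671 and 540 TPM in saline and 308 and 425 in AP. Its log2 difference of -0.73 was under the fold threshold (limma adjusted p 0.033), and it was called lower with median-of-ratios scaling. By log2 difference, 9 of the 11 were higher in AP and 2 lower, so the sums understate the rise of most of these markers. Of 19 acinar markers, 6 had values, and Bhlha15, Rbpjl, Amy2a5 and Cckar were lower in AP and higher again after polyI:C. The other 2, Ptf1a and Nr5a2, did not fall in AP (log2 0.20 and 0.16, not called). Ptf1a was 44.5 and 40.8 TPM in saline, 55.2 and 43.4 in AP, and 67.3 and 98.3 after polyI:C. Nr5a2 was 92.4 and 97.0, 107 and 105, and 165 and 145 TPM in the same order. The part of these cell types in the levels was not tested.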

How the data were processed

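Total pancreas RNA was depleted of ribosomal RNA or enriched for mRNA (the labels name a kit for each), and the submitters' processing notes name Trimmomatic, STAR, HTSeq, DESeq2 and the build mm10. The authors deposited TPM per gene and library, and the step from counts to TPM is not given in the sources used here. Of 22556 gene IDs, 22490 matched GENCODE M21, which gave symbols, positions and exon lengths.

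Here TPM + 0.5 was put on the log2 scale for the 16814 genes whose mean TPM reached 1, and all 6 libraries entered 1 limma 3.58.1 fit (R 4.3.3), with a prior variance that followed log2 of mean TPM times exon length. Fold changes on this scale understate those of low genes. Reads were estimated from the spacing of low TPM values. Among values worth under 20 reads, 50.6% to 62.0% were whole within 0.1 of a read (18.9% to 20.5% with lengths shuffled among genes). On simulated data for AP against saline, 128 of 200 genes changed 4-fold were recovered (64%), with 9 false calls among 16775 genes. From each related list, at most the 4 called genes with the largest change were named, and any gene at 0 that bears on a count. A gene that this rule names is not reported here. The genes and lists were chosen with earlier results of these data known. Alternatives changed the pseudocount, filter, scaling, prior, model and libraries used.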

Additional observations from a re-analysis of the deposited data

How the results depend on the processing

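Of the 8 tested genes, 5 rose in AP against saline, and leaving out 1 library gave 3 to 6 (3 without AP replicate 2). The 1 gene lowered after polyI:C, Adam8, became 0 with a pseudocount of 0.1, with no filter and with a prior on the mean log2 value (adjusted p 0.064, 0.065 and 0.11), and 0 to 1 on leaving out a library. The 5 raised in polyI:C + AP against saline became 3 with voom, and 3 to 7 on leaving out a library (3 without polyI:C + AP replicate 2, 7 without saline replicate 1). Between the cerulein groups, leaving out a library moved the log2 difference of Mmp3 from -0.56 to 0.40 (0.27 without AP replicate 2) and that of Mmp14 from -0.13 to 0.087 (0.02 without polyI:C + AP replicate 1). The cause was not tested. Over all genes, calls after polyI:C numbered 74 raised and 68 lowered, against 14 and 14 with the prior on the mean log2 value and 115 and 217 with voom. Replicate numbers did not pair the samples (correlations -0.0039 to 0.035), and with a replicate block the counts stayed 5, 1 and 5. The low estimated depth of the saline libraries, over the genes with values, limits Mmp7, Mmp9, Mmp12, Mmp13 and Timp1, each with 20 or fewer reads in either library. Saline reads were also few for Mmp3 (23 and 17), Mmp19 (28 and 13) and Adam8 (27 and 12).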

Other observations

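The 2 polyI:C + AP libraries differed in some secreted enzymes of the chromosome 9 cluster. Replicate 1 had the higher Mmp3, 61.2 against 31.2 TPM. Replicate 2 had the higher Mmp7, 33.8 against 14.6 TPM, the higher Mmp13, 2.16 against 0.571, and the higher Mmp10, 13.9 against 0. By estimated reads, Mmp10 had 79 in replicate 2 and 0 in replicate 1. Mmp12 and Mmp8 of the same cluster were low in both, at 1 read each and at 6 and 4 reads. Of the genes on other chromosomes, Mmp14 and Mmp19 were near equal in these libraries, 14.3 and 15.2 TPM and 17.7 and 17.9 TPM, while Mmp9 was 0.221 and 0.703. The AP libraries also differed in this cluster, so such a spread was not particular to polyI:C + AP. In AP replicates 1 and 2, Mmp3 was 36.1 and 59.0 TPM, Mmp7 8.33 and 19.1, Mmp13 1.40 and 0.692, and Mmp10 6.25 and 4.08. With 1 library of each pattern, the difference between the polyI:C + AP libraries was not tested.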
